A study of Homo sapiens with 27 samples.

Results

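LTED-E is one of 4 long-term estrogen-deprived (LTED) variants of MM134 (MDA-MB-134VI), a human cell line from an estrogen receptor-positive invasive lobular carcinoma of the breast. LTED-E was compared with MM134 parental cells over 3 wells on each side, which makes 6 of the 27 RNA-Seq libraries of the series, and over the 26061 genes that passed a filter on low counts, of 60619 in the deposited table. The parental cells normally grow with fetal bovine serum and had been hormone-deprived for 3 days in IMEM with charcoal-stripped serum, which holds little steroid hormone. LTED-E is a line derived by culture for months in the same stripped serum, where it grows without added estrogen. LTED-A, LTED-B and LTED-D (9 libraries) came from the same procedure and show here what is particular to LTED-E. The wells were seeded in triplicate and nothing says that they came from separate cultures, so p-values measure the spread between wells, which may be technical, and the time in the medium, the growth of few founder cells and the loss of estrogen cannot be told apart.

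Estrogen receptor-positive breast cancer cells grow in response to estradiol, and lowering the hormone is the aim of aromatase inhibitor treatment. Cells that come to grow without it often keep the receptor and alter growth factor signalling and lipid supply. Cells build cholesterol from acetyl-CoA through the mevalonate pathway, whose enzymes the transcription factor SREBP2 controls together, and export it through transporters such as ABCA1.

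The libraries held 28582990 to 33810657 counts in parental cells, 40459930 to 52501654 in LTED-E and 32283723 to 101378279 in the other variants. Levels are given as CPM, the counts scaled to library size by TMM. They are not divided by gene length, so they compare groups and not genes. The epithelial gene EPCAM was at 252 CPM in parental cells and 373 CPM in LTED-E, and the luminal keratin KRT8 at 585 and 1222 CPM. The luminal transcription factor GATA3 fell, as given below. Of 14 markers of immune cells 10 did not pass the filter on low counts, PTPRC and CD3D among them. Of the 4 that were tested 3 rose in LTED-E, also given below.

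LTED-E differed from parental cells in 4947 genes. At the study's thresholds, a fold change over 1.5 and an adjusted p under 0.001, here from edgeR's quasi-likelihood test, 2271 genes were higher in LTED-E (8.71% of those tested) and 2676 were lower (10.3%). By more than 4-fold, 678 genes rose and 842 fell. The median log2 fold change over all genes tested was 0.02. Against the mean of LTED-A, LTED-B and LTED-D, a contrast without parental libraries, 824 genes were higher in LTED-E (3.16%) and 1396 were lower (5.36%). Against LTED-A alone 690 were higher (2.65%) and 1354 lower (5.2%). Against LTED-B alone 1033 were higher (3.96%) and 1517 lower (5.82%), and against LTED-D alone 1040 (3.99%) and 1990 (7.64%). In each of these contrasts more genes were lower in LTED-E than higher. How many of the genes lower than in LTED-D, or than in the mean, lie in stretches raised in LTED-D, given below, was not tested.

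The strictest class holds genes that passed in 1 direction against parental cells and against each of the 3 other variants. It had 179 genes higher in LTED-E (0.687%), 144 of them protein-coding, and 371 lower (1.42%), 319 of them protein-coding. By more than 8-fold in all 4 contrasts, 16 genes were higher and 26 lower.

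**Figure D1:**
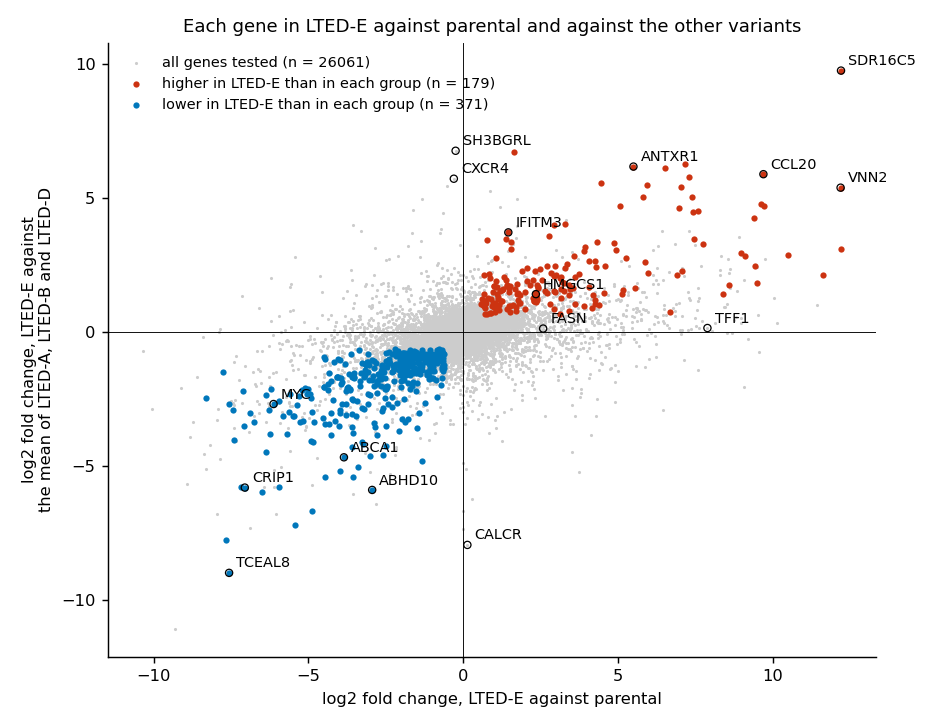
Fitted log2 fold change of each of the 26061 genes tested in LTED-E against parental cells (horizontal) and against the mean of LTED-A, LTED-B and LTED-D (vertical), 1 point a gene. Red points are the 179 genes higher and blue points the 371 genes lower in LTED-E than in each other group, and circles mark named genes. TFF1 and FASN lie near 0 on the vertical axis, and SH3BGRL, CXCR4 and CALCR near 0 on the horizontal axis.

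Genes of cholesterol synthesis were higher in LTED-E than in parental cells and, for a part of them, higher than in every other variant. Of 25 listed genes of cholesterol synthesis and uptake 24 were tested, and 18 rose and 1 fell against parental cells, where 8.71% and 10.3% of all genes did. These shares are the background of every list count against parental cells given here, and 3.16% higher and 5.36% lower that of every count against the other variants. For members that passed against each of the 4 other groups it is 0.687% higher and 1.42% lower. The median log2 fold change of the list was 0.80. In LTED-A, LTED-B and LTED-D, set against the same parental libraries, it was 0.33, 0.33 and 0.37, and 8, 7 and 9 members rose. Against the mean of the other variants 9 members were higher in LTED-E and 1 was lower, and the median difference was 0.51 on the log2 scale, beside 0.02 for all genes. HMGCS1, STARD4, MSMO1, ACAT2, IDI1, EBP and FDFT1, 7 in number, passed against each of the 4 other groups. That their LTED-E wells lie apart from the other groups largely follows from this choice. In bulk libraries a lower level in every cell and a loss from a share of the cells cannot be told apart.

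Promoters of 4 of these 7 are shown, since the genes passed in 1 direction against all 4 groups. Each is the 250 bases before a RefSeq start site (GRCh38.p14), written 5′ to 3′ on the strand of the gene. Capitals mark CCAAT or its reverse complement ATTGG, the letters of the box that the factor NF-Y binds.
HMGCS1, chr5:43313413-43313662, minus strand: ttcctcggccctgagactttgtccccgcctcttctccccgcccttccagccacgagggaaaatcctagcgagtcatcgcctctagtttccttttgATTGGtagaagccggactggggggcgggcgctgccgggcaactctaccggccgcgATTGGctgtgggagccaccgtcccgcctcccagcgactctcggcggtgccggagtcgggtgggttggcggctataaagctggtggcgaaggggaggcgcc
MSMO1, chr4:165327419-165327668, plus strand: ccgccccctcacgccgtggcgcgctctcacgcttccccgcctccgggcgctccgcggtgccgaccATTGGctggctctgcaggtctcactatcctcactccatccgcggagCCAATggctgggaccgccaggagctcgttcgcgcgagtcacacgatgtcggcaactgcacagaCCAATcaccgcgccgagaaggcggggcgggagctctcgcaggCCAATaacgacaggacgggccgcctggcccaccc
EBP, chrX:48521558-48521807, plus strand: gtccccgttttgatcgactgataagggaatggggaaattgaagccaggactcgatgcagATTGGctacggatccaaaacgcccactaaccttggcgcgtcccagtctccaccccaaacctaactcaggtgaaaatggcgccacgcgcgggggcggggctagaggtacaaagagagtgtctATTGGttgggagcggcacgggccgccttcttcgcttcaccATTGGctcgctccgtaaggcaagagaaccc
IDI1, chr10:1049120-1049369, minus strand: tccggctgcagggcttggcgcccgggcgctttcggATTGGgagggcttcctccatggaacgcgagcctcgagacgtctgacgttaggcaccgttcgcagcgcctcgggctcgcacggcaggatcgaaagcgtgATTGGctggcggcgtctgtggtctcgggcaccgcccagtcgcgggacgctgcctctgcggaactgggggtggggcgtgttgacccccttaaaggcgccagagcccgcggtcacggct
The windows hold 2, 4, 3 and 2 copies. A second start site of HMGCS1 has 0 copies, and further start sites of IDI1 have 0 and 3. MVK and NSDHL, which did not pass against parental cells, have 5 copies each. RefSeq promoters were found for 18 of the 25 listed genes, at 23 start sites. Of these 23 windows 18 (78.3%) hold CCAAT on either strand, at 16 genes, beside 32% of all 35116 windows of that length. The letters CACCCCAC, searched on both strands, are in 1 of the 23 windows (4.35%), that of SREBF2, and in 2.43% of all windows. A match describes the letters of a window and is not a bound site.

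HMGCS1, which makes HMG-CoA at the head of the mevalonate pathway, gave 95.7, 90.2 and 89.5 CPM in the parental wells and 480.2, 455 and 472 CPM in LTED-E. Its means in LTED-A, LTED-B and LTED-D were 196 ± 3.98, 152 ± 11.6 and 190.1 ± 3.92 CPM (SD, n = 3 each), so the LTED-E wells lay above all others. The log2 fold change was 2.35 against parental cells (SE 0.045, edgeR adjusted p = 2.53e-18) and 1.40 against the other variants (SE 0.032, edgeR adjusted p = 1.45e-16). STARD4, a carrier of sterol between membranes, rose from 2.12, 2.32 and 2.1 CPM to 26.3, 27.6 and 26.5 CPM. The other variants stood between, with means of 12.3 to 13.9 CPM. MSMO1, a methylsterol oxidase late in the pathway, rose from 57.1, 55.5 and 62 CPM to 203, 204 and 198 CPM, and the other variants again stood between at 85.4 to 106 CPM.

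ACAT2, IDI1, EBP and FDFT1 had another shape, since none of the 4 passed against parental cells in LTED-A, LTED-B or LTED-D. ACAT2, the thiolase that supplies acetoacetyl-CoA, was at 117 to 155 CPM in the means of the other 4 groups and at 263, 257 and 263 CPM in LTED-E. IDI1, an isomerase of isopentenyl diphosphate, was at 95 to 123 CPM and at 193, 193 and 191 CPM. EBP, a sterol isomerase, lay at 68.4 to 76 CPM and reached 115, 119 and 118 CPM. FDFT1, which makes squalene, lay at 60.3 to 72.6 CPM and reached 109, 111 and 109.8 CPM. In all 4 the lowest LTED-E well was above the highest well of any other group, as their choice by passing against each group makes likely.

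SQLE, the squalene epoxidase, was at 499, 508 and 492 CPM in LTED-E and 163, 153 and 157 CPM in parental cells, and 0.85 above the other variants on the log2 scale. FDPS, the farnesyl diphosphate synthase, was at 192, 203 and 198 CPM and 115, 110.2 and 117 CPM, and 0.65 above the other variants. SREBF2, the gene of SREBP2 itself, averaged 139 CPM in LTED-E and 79.4 CPM in parental cells and rose by 0.81 on the log2 scale, while its difference from the other variants, 0.44, was under the 1.5-fold minimum. MVK, PMVK, NSDHL, TM7SF2 and SC5D did not pass against parental cells, with log2 fold changes of 0.01, 0.34, 0.49, 0.28 and 0.40. The member that fell was NPC1L1, a sterol uptake protein of the gut, at 0.438 CPM in parental cells and 0.156 CPM in LTED-E.

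**Figure D2:**
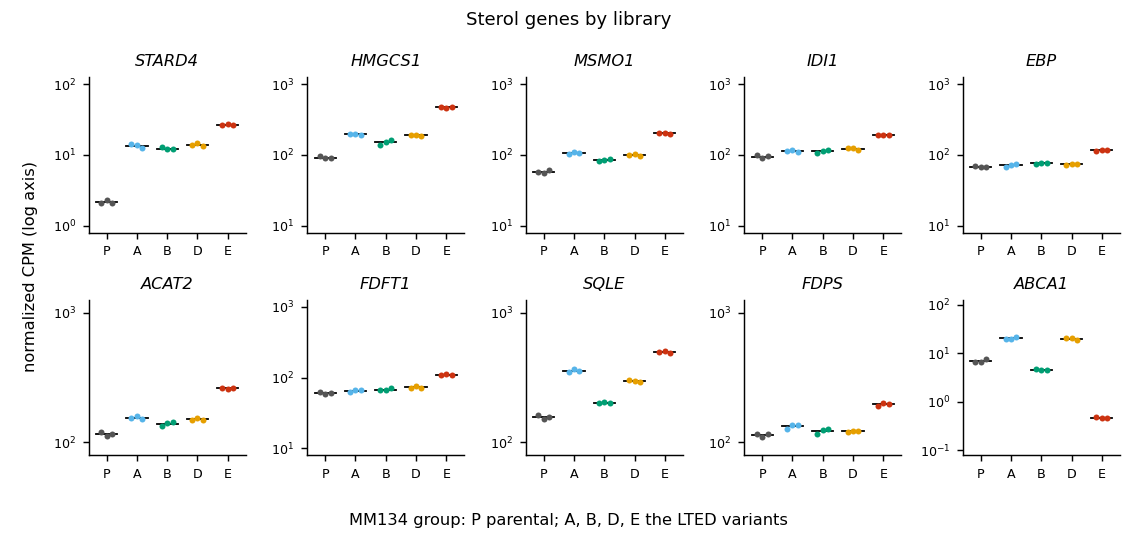
Normalized CPM (log axis) of 9 genes of cholesterol synthesis and transfer and of the efflux transporter ABCA1 in the 15 MM134 libraries, where P is parental and A, B, D and E are the LTED variants, points are wells and bars are means of 3 wells. In LTED-E HMGCS1 lies at 455 to 480 CPM, above all other wells, and ABCA1 at 0.465 to 0.494 CPM, below all other wells.

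One gene of cholesterol export, ABCA1, was far lower in LTED-E than in every other group. ABCA1, the pump that hands cholesterol to apolipoproteins, gave 6.71, 6.46 and 7.48 CPM in the parental wells and 0.494, 0.466 and 0.465 CPM in LTED-E. LTED-A, LTED-B and LTED-D had 20.2 ± 0.772, 4.62 ± 0.121 and 19.98 ± 0.977 CPM, so LTED-E lay below every other group without overlap. ABCA1 was among the genes chosen as lowest against every group, so the lack of overlap follows from the choice. The log2 fold change was -3.85 against parental cells (SE 0.099, edgeR adjusted p = 2.09e-16) and -4.69 against the other variants. The related transporter ABCG1 was at 114 ± 2.09 CPM in parental cells and 98.9 ± 1.57 CPM in LTED-E and did not pass. Of 15 tested genes of efflux and oxysterol handling, 2 rose (NPC2, which carries cholesterol out of lysosomes, and APOD, a lipid carrier) and 1 fell, ABCA1, beside 8.71% and 10.3% of all genes. The median log2 fold change of that list was 0.02, beside 0.02 for all genes.

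Fatty acid genes held both shared and particular changes. Of 23 genes of fatty acid synthesis 10 rose and 6 fell against parental cells (median log2 fold change 0.24), and 5 were higher and 4 lower than in the other variants. FASN, the fatty acid synthase, rose from 363 ± 11.6 to 2184 ± 83.8 CPM, within the span of the other variants (1406 to 3152 CPM). SREBF1, the gene of the related factor SREBP1, rose by 1.08 on the log2 scale and differed from the other variants by 0.17, which did not pass. SCD, the stearoyl-CoA desaturase, gave 490.04, 456 and 459 CPM in parental wells and 3716, 3726 and 3707 CPM in LTED-E. The highest mean among the other variants was 2558 CPM, in LTED-A, from which LTED-E did not differ past the thresholds.

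ME1, the cytosolic malic enzyme that supplies NADPH, had 3 counts in all parental wells together and 21.2, 21.9 and 20.8 CPM in LTED-E, 736-fold more (95% counting interval 252 to 3571). It was at 8.35, 0.191 and 0.888 CPM in LTED-A, LTED-B and LTED-D, all below LTED-E past the test. FADS1 and FADS2, desaturases of polyunsaturated fatty acids, fell from 112 to 9.52 CPM and from 258 to 12.5 CPM. FADS1 was lower still in the other variants, at 4.79 to 5.58 CPM.

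Fatty acid oxidation genes were in part lower in LTED-E than in the other variants. HADHB, a subunit of the trifunctional protein of beta-oxidation, was at 75.4 CPM in parental cells, 82.9 CPM in LTED-E and 133 to 151 CPM in the others. Of 19 tested genes of fatty acid oxidation and ketone metabolism, 6 rose and 2 fell against parental cells (median log2 fold change 0.35), and 3 were lower than in the other variants, beside 5.36% of all genes.

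A set of genes was far higher in LTED-E than in every other group. The 10 named here are those with the largest smallest-of-4 fold change, so that their groups do not overlap follows from the choice. Against parental cells ANTXR1, ATP2A3 and FOXJ1 passed as higher in LTED-E and in none of the other 3 variants. CCL20 and SDR16C5 also passed in LTED-A, SOSTDC1 in LTED-D, and TNF, DOCK11, C3orf70 and CRYBG3 in both LTED-A and LTED-D, at lower levels than in LTED-E. SDR16C5, a retinol dehydrogenase, had 0 counts in the parental wells and 13.5, 13.7 and 11.6 CPM in the LTED-E wells. That is at least 133.7-fold higher, against a floor of 3 counts in a library. LTED-A, LTED-B and LTED-D were at 0.109, 0 and 0.00938 CPM. ANTXR1, a collagen-binding receptor that anthrax toxin also uses (chr2:69013176-69249327, hg38), was at 0.227, 0.16 and 0.709 CPM in parental wells and 15.9, 16.3 and 15.8 CPM in LTED-E. It was at 0.219 to 0.224 CPM in the other variants, and the log2 fold change against parental cells was 5.51 (SE 0.30, edgeR adjusted p = 1.66e-11). Both genes were below 1 CPM in each library outside LTED-E.

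Secreted signals were among them. The chemokine CCL20 was at 10.4, 9.54 and 11 CPM in LTED-E, with 1 count in all parental wells, and at 1.11, 0.0543 and 0.0853 CPM in the other variants. TNF, the inflammatory cytokine, was at 0.368, 0.374 and 0.193 CPM in parental wells and 5.98, 4.77 and 5.5 CPM in LTED-E, with the others at 0.421 to 1.39 CPM. SOSTDC1, a secreted antagonist of BMP and WNT ligands, was at 6.06, 6.63 and 6.45 CPM in LTED-E and at 0.0456 to 1.43 CPM in the 4 other groups. LTB, the cytokine gene 2189 bases from TNF, also passed, with log2 differences of 0.93 from parental cells and 1.26 from the other variants.

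ATP2A3, a calcium pump of the endoplasmic reticulum, rose to 6.75, 6.8 and 7.63 CPM from 0.651, 0.721 and 0.774 CPM, with the other variants at 0.292 to 0.549 CPM. FOXJ1, the transcription factor of motile cilia, rose to 5.46, 5.32 and 5.67 CPM from 0.481, 0.374 and 0.516 CPM. DOCK11, an exchange factor for CDC42, rose to 8.24 ± 0.567 from 0.404 ± 0.117 CPM. C3orf70 rose to 15.5 ± 1.15 from 1.02 ± 0.278 CPM, and CRYBG3 to 24.2 ± 0.701 from 0.14 ± 0.0763 CPM. LTED-A and LTED-D had 4.68 and 5.74 CPM of CRYBG3.

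Another set was far lower in LTED-E than in every other group, and for a part of it the other variants had fallen too. Its members were chosen in the same way, so that their groups do not overlap again follows from the choice. TCEAL8, of a family of X-linked proteins resembling an elongation factor (chrX:103252995-103255192, hg38), gave 18.7, 16.6 and 19.2 CPM in parental wells and 0.0247, 0.0636 and 0.174 CPM in LTED-E, while the other variants rose to 46.5 to 52.9 CPM. The log2 fold change was -7.56 (SE 0.15, edgeR adjusted p = 6.98e-18). CRIP1, a small LIM-domain protein (chr14:105486317-105488947), gave 116, 129.7 and 121 CPM and then 0.816, 0.742 and 1.16 CPM. For CRIP1 the other variants, at 38 to 68.2 CPM, also passed as lower than parental cells, but stood far above LTED-E.

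EEF1A2, a translation elongation factor, gave 78.7, 78 and 77.5 CPM in parental wells and 1.24, 0.805 and 0.813 CPM in LTED-E, with the others between at 9.67 to 37.8 CPM, each a fall from parental cells past the test. RIBC2, a protein of ciliary microtubules, had 3 counts in all LTED-E wells and 1.06 ± 0.132 CPM in parental cells, 48.8-fold more (95% counting interval 16.3 to 240). RTL8A, a gene of retrotransposon origin, fell from 6.72 ± 0.854 to 0.0711 ± 0.0273 CPM, and PCDHA7, a clustered protocadherin, from 19.1 ± 1.66 to 0.131 ± 0.0297 CPM. Both have near-identical or overlapping copies among which fragments are divided by estimate, so their own values are uncertain. PCDHA7 also fell in each other variant, to 6.5 to 9.14 CPM, and RTL8A in LTED-A, to 4.37 CPM. The copy RTL8C, next to RTL8A, fell by less (log2 fold change -0.76), and of the 11 genes overlapping PCDHA7 that were examined, all but PCDHA4 fell too. ABCA1, TCIRG1 and PECR belong to the same set.

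**Figure D3:**
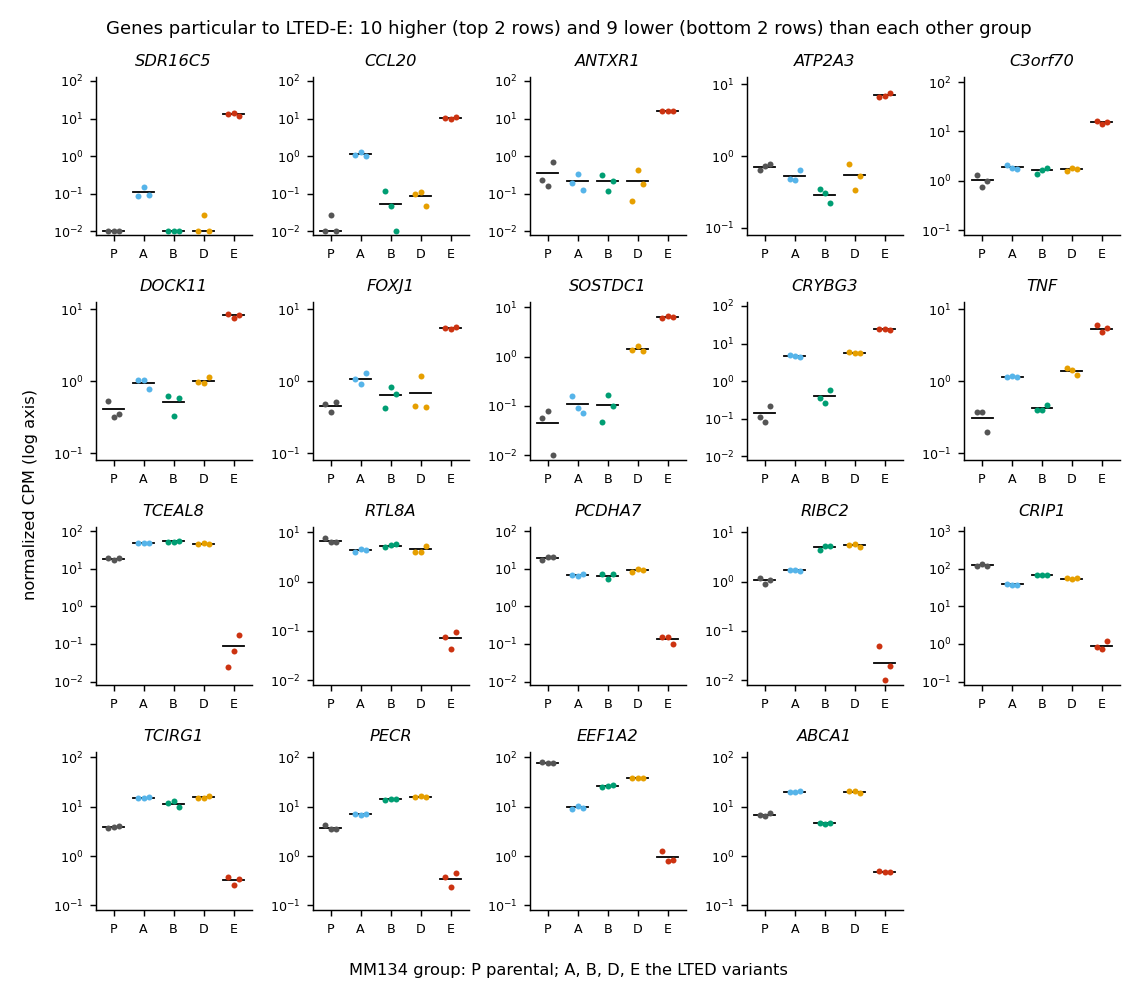
Normalized CPM in the 15 MM134 libraries (log axis, values under 0.01 drawn at 0.01; P is parental, A, B, D and E are the LTED variants, points are wells, bars are means) of the 10 genes most above and of 9 of the 10 most below every other group in LTED-E. SDR16C5 and ANTXR1 lie above 11 CPM in LTED-E and below 1 CPM elsewhere, and TCEAL8 lies at 0.0247 to 0.174 CPM in LTED-E.

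Neighbouring genes were examined beside the lost ones. Of the nearest expressed protein-coding genes beside TCEAL8, BEX4 had a log2 fold change of 0.00409 against parental cells and BEX2 of -1.05, the latter a call. NDUFS8 and CHKA, 2381 and 1964 bases from TCIRG1, had 0.56 and 0.23 and did not pass. CRIP2, beside CRIP1, fell by 1.71, whereas TEDC1 on the other side had -0.10. Over longer stretches, 0 of 555 windows of 40 neighbouring genes had a median log2 fold change beyond 0.5, and the highest median was 0.373, on chromosome 8. That window was raised in the other variants too, at 0.394 (LTED-A), 0.37 (LTED-B) and 0.57 (LTED-D). In windows of 20 genes 6 of 1146 were beyond 0.5, with a highest median of 1.98 on chromosome 6 and a lowest of -0.52 on chromosome 17. The highest window (chr6:32164595-33200665) holds MHC class II genes such as HLA-DRB1 and HLA-DMB, treated below. The class II list also rose in the other variants, with a median log2 fold change of 3.88 (LTED-A), 1.22 (LTED-B) and 3.01 (LTED-D). The chromosome 17 window was also the lowest against the other variants, at -0.52, where 2 windows were beyond 0.5. In a window of 40 genes around it LTED-D was raised against parental cells, at 0.412. LTED-A, LTED-B and LTED-E had -0.101, -0.0563 and -0.237 there. Among windows of 40 genes the lowest against the other variants was at -0.298, on chromosome 16. LTED-D had 0.483 against parental cells in it, and LTED-A, LTED-B and LTED-E had -0.0813, -0.055 and -0.168. Chromosomes 7 and 12 also held windows raised in LTED-D, for example at 0.512 and 0.487, where LTED-E had 0.157 and 0.291. Not every window of chromosome 12 was raised, with LTED-D at -0.0344 in one. With genes of at least 1 CPM in place of 5 CPM, 1 of 778 windows of 40 genes was beyond 0.5 against parental cells, at 0.555, also on chromosome 8.

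A class of 22 genes went in LTED-E against the direction of all 3 other variants, 4 of them up and 18 down in LTED-E. ABHD10, a mitochondrial depalmitoylating enzyme, gave 2.24, 1.79 and 1.61 CPM in parental wells and 0.222, 0.233 and 0.271 CPM in LTED-E, but means of 16.2, 12.7 and 15.8 CPM in LTED-A, LTED-B and LTED-D. Its log2 fold change was -2.94 in LTED-E and its difference from the other variants -5.91 (SE 0.12). TCIRG1, a subunit of the vacuolar proton pump, gave 3.63, 3.9 and 4.03 CPM and then 0.371, 0.254 and 0.348 CPM, against 11.4 to 15.6 CPM in the others. PECR, a peroxisomal enoyl-CoA reductase, fell from 3.75 ± 0.381 to 0.35 ± 0.108 CPM, against 6.97 to 15.9 CPM. The zinc finger gene ZNF662 fell from 1.38 ± 0.0908 to 0.537 ± 0.11 CPM, against 13 to 17.3 CPM.

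A further 80 genes stayed within 1.5-fold of parental cells in LTED-E while all 3 other variants moved, 65 up and 15 down. CXCR4, the receptor of the chemokine CXCL12, gave 77.6, 75.9 and 75.9 CPM in parental wells and 60.1, 62.1 and 64.3 CPM in LTED-E. LTED-A, LTED-B and LTED-D had lost most of it, at 4.41, 1.05 and 0.362 CPM. SH3BGRL, a small protein of thioredoxin fold, gave 81.9, 77.3 and 83.8 CPM and 67.5, 69.9 and 68.1 CPM, and 9.8, 0.543 and 0.0478 CPM in the others. For both genes the LTED-E wells all lay below the parental wells, so within 1.5-fold does not mean equal. ALB, the gene of albumin, moved the other way, at 0.765, 0.774 and 0.742 CPM in parental wells, 0.568, 0.615 and 1.18 CPM in LTED-E and 9.71, 23.4 and 104 CPM in the others. CALCR, the calcitonin receptor, had 2 counts in parental and 3 in LTED-E wells and 3.65 to 12.9 CPM in the others. POTEC, which has near-identical copies in the genome, was at 4.06 CPM in parental cells, 4.02 CPM in LTED-E and 12.7 to 39.7 CPM in the others.

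**Figure D4:**
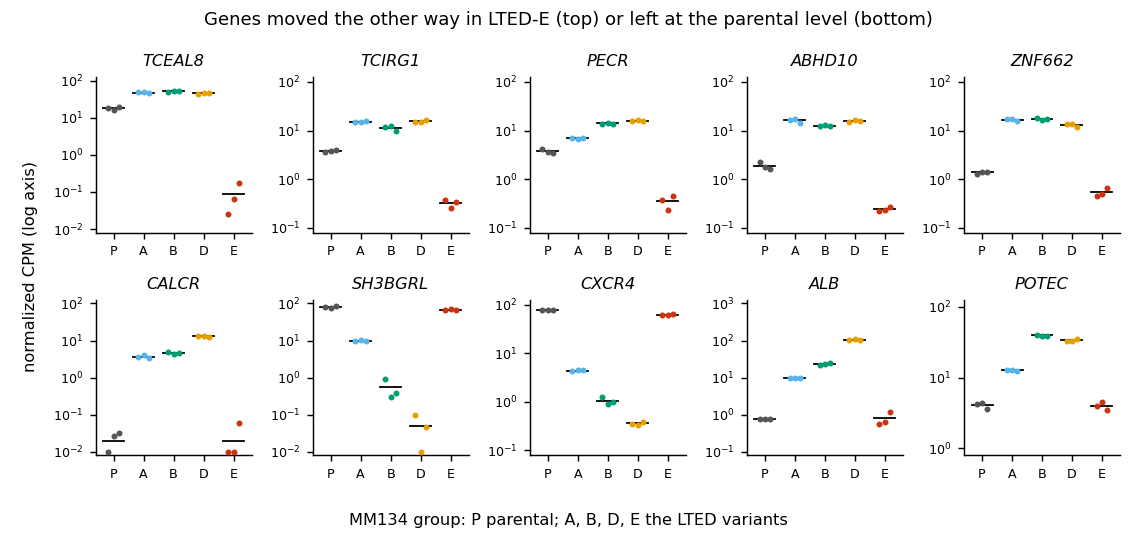
Normalized CPM in the 15 MM134 libraries (log axis, values under 0.01 drawn at 0.01; P is parental, A, B, D and E are the LTED variants, points are wells, bars are means) of the genes that moved against the other variants and of those that stayed near the parental level in LTED-E. ABHD10 lies at 0.222 to 0.271 CPM in LTED-E, below parental cells, with the other variants above them, and CXCR4 at 60.1 to 64.3 CPM, near parental cells.

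The largest rises were of genes near 0 in parental cells, and most were shared. FOLR3, a secreted folate receptor, had 1 count in all parental wells and 59.6, 59.9 and 58.4 CPM in LTED-E, 6147-fold more (95% counting interval 1103 to 242817). VNN2, a membrane pantetheinase, had 2 counts and then 102, 103 and 105 CPM, 5373-fold more (interval 1487 to 44373). FOLR3 and VNN2 were also higher than in each other variant, LTED-A coming nearest with 20.8 and 67.9 CPM. CRISP3, a secreted cysteine-rich protein, gave 0.991, 0.988 and 0.903 CPM and then 825, 827 and 832 CPM, a level that LTED-A shared (835 CPM). S100A14, a calcium-binding protein, was at 0.193 and 221 CPM, below LTED-A at 449 CPM. AGR3 and RAD21L1, with 2 and 1 parental counts, reached 16.6 and 9.11 CPM. SLC18B1, with 0 parental counts, reached 7.61 CPM, which is a rise of at least 78.6-fold against the same floor.

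Most of the largest falls were shared with the other variants. GPR158, a receptor of the brain, gave 27.6, 24.8 and 25.2 CPM in parental wells and 3 counts in all LTED-E wells, 1201-fold less (95% counting interval 411 to 5828). GRIA3, a subunit of AMPA glutamate receptors, fell from 17.5 ± 1.06 to 0.0347 ± 0.0204 CPM. The potassium channel KCNC2 fell from 34.8 ± 0.711 to 0.0846 ± 0.0278 CPM. All 3 were also called lower in each other variant against parental cells, though LTED-D kept GRIA3 at 9.2 CPM (log2 fold change -0.93). SHISA2, at 192, 180.4 and 190.4 CPM in parental wells and 0.519, 0.678 and 0.561 CPM in LTED-E, and the metalloproteinase MMP16, at 103 and 0.478 CPM, were lower in LTED-E than in each other group. PLAAT5, at 56.3 and 0.168 CPM, and BRINP1, at 27.2 and 0.113 CPM, did not pass against any other variant. Against the mean of the other variants the call on GPR158 was lost without LTED-E replicate 2 (log2 difference -2.88, edgeR adjusted p = 0.00302) and replicate 3 (-2.29, 0.00425), with counts thinned to the smallest library (-2.71, 0.00149) and with DESeq2 (-3.05, adjusted p = 0.00158). The call on KCNC2 was lost without LTED-E replicate 1 (-1.61, edgeR adjusted p = 0.00221) and replicate 2 (-1.51, 0.00357) and with thinned counts (-1.52, 0.00228).

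Estrogen-related genes changed in both directions. ESR1, the estrogen receptor, gave 369, 347 and 363 CPM in parental wells and 262, 267 and 266 CPM in LTED-E, a log2 fold change of -0.44, under the fold minimum, with 149, 533 and 467 CPM in LTED-A, LTED-B and LTED-D. Of 24 estrogen-related genes 5 rose and 10 fell against parental cells (median log2 fold change -0.37), beside 8.71% and 10.3% of all genes, and 4 were lower than in the other variants. In LTED-A 5 rose and 11 fell, in LTED-B 7 and 8 and in LTED-D 7 and 9, against the same parental libraries. TFF1, a secreted trefoil peptide induced by estrogen, rose from 4.28, 4.27 and 4.29 CPM to 983, 1043 and 1036 CPM, and TFF3 from 107 to 2807 CPM. Neither differed from the mean of the other variants past the thresholds. PGR, the progesterone receptor, fell from 2.65 ± 0.383 to 0.129 ± 0.0169 CPM, and GREB1, an estrogen-induced coactivator, at 69.8 and 48 CPM, did not pass. STC2, a secreted glycoprotein, gave 39.6, 35.9 and 35.4 CPM and then 1.95, 1.8 and 2.23 CPM, below each other group (7.73 to 18.4 CPM in the other variants). Of 19 luminal factors and keratins 5 rose and 2 fell, among them GATA3, a luminal transcription factor, from 163 to 80.9 CPM, beside 8.71% and 10.3% of all genes.

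Growth control genes combined a very low MYC with replication genes near the parental level. MYC, the growth transcription factor, gave 19, 19.1 and 19.6 CPM in parental wells and 0.346, 0.297 and 0.194 CPM in LTED-E (log2 fold change -6.12, SE 0.15, edgeR adjusted p = 8.03e-17). It was low in LTED-A, LTED-B and LTED-D too, at 2.93, 1.32 and 1.5 CPM, but lower in LTED-E than in each. CDKN1A, the kinase inhibitor p21, fell from 49.8 ± 0.692 to 4.37 ± 0.51 CPM, and the others were at 1.52 to 2.92 CPM. Of 17 genes of G1 control 1 rose, CDK6, and 4 fell, where 8.71% and 10.3% of all genes did. Of 30 genes of DNA replication and mitosis 1 rose, CCNE1, and 1 fell, TOP2A, against parental cells (median log2 fold change 0.06). Against the other variants 2 were higher, and the median difference was 0.31, beside 0.02 for all genes. The 2 were MKI67, the proliferation antigen, at 371, 367 and 390.2 CPM in LTED-E and 180.04 to 221 CPM in the others, and RRM2, of ribonucleotide reductase, at 234, 218 and 226 CPM and 111 to 121 CPM. The parental means lay between for both, with 289, 262 and 239 CPM for MKI67. Against parental cells MKI67 had a log2 fold change of 0.515, under the fold minimum, and passed at 0.587 without parental replicate 1. RRM2 had 0.384 and the list member CDK1 -0.397, both under the fold minimum. Of 19 tested immediate early genes 2 rose and 6 fell, beside 8.71% and 10.3% of all genes, and KLF4 reached 96.4 CPM from 5.96 CPM.

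MHC class II genes rose in LTED-E and in the other variants. Of 25 interferon-stimulated genes 9 were lower in LTED-E than in the mean of those variants, beside 5.36% of all genes. Of 15 class II genes 10 rose (median log2 fold change 2.68), and the median difference from the other variants was -0.05. CD74, the invariant chain, rose from 22.2, 21.2 and 21.3 CPM to 84.2, 82.8 and 90.01 CPM, with LTED-A, LTED-B and LTED-D at 318, 52.5 and 174 CPM. CIITA, the class II transactivator, rose from 5.94 ± 0.176 to 14.3 ± 0.306 CPM. Of 15 class I genes 6 rose and 3 fell. HLA-E reached 67.4 from 25.9 CPM, while HLA-B and HLA-C fell, with log2 fold changes of -0.971 and -0.972. Fragments of HLA genes are shared among similar copies, so single values are uncertain.

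Of 25 interferon-stimulated genes 5 rose and 1 fell against parental cells, while against the mean of the other variants 9 were lower and 2 higher (median difference -0.21). Against parental cells the median log2 fold change of the list was 0.13 in LTED-E. It was 0.59, 0.36 and 0.06 in LTED-A, LTED-B and LTED-D, so by this measure LTED-D lay below LTED-E. IFIT2 was at 1.36, 1.2 and 1.48 CPM in parental wells, 1.68, 1.53 and 1.26 CPM in LTED-E and 3.77 to 13.7 CPM in the others. IFITM3, a membrane protein that blocks virus entry, was an exception, at 10.6, 10.5 and 10.7 CPM in parental wells and 28.7, 29.1 and 29.97 CPM in LTED-E, against 3.43, 1.65 and 2.02 CPM. It rose in LTED-E and fell in each other variant, and the difference was 3.70 on the log2 scale (SE 0.060, edgeR adjusted p = 1.27e-18). The family members IFITM1 and IFITM2 did not pass in either contrast. Of the 4 immune markers that were tested 3 rose, ITGAM to 16.5 from 0.348 CPM, CD68 to 2.59 from 0.214 CPM and LYZ to 2.16 from 0.273 CPM, while CSF1R, at 0.594 and 0.54 CPM, did not pass.

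Receptors and signalling genes were divided. Of 27 tested receptor tyrosine kinases and feedback genes 10 rose and 9 fell (median log2 fold change 0.20), and 5 were higher and 7 lower than in the other variants. ERBB4 rose from 5.07 ± 0.382 to 108 ± 2.63 CPM and ERBB2 fell from 72.8 ± 1.96 to 8.27 ± 0.637 CPM, and both moved the same way in each other variant. MET, the receptor of hepatocyte growth factor, was at 2.12, 2.54 and 2.77 CPM in parental wells and 10.5, 9.94 and 10.2 CPM in LTED-E, and at 7.94, 0.775 and 2.56 CPM in the others. IGFBP5, a binding protein of insulin-like growth factors, was at 18, 17.4 and 18.9 CPM and 5.59, 4.26 and 5.81 CPM, a smaller fall than in the others, which were at 0.251 to 1.05 CPM. FGFR1 fell from 2257 to 1365 CPM.

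Of 15 tested WNT genes 4 rose and 7 fell. WNT4, a ligand of the mammary gland, was at 5.64, 6.14 and 6.35 CPM in parental wells and 17.8, 17.2 and 17.1 CPM in LTED-E, 0.80 above the other variants on the log2 scale, though it did not pass against LTED-A alone (13.8 CPM). Of 14 tested Notch genes 5 rose and 5 fell, and the ligand DLL1, at 6.45 and 19.7 CPM, was higher than in each other group. Of 19 tested genes of BMP and TGF-beta signalling 5 rose and 6 fell, and 3 were higher than in each other group, beside 0.687% of all genes. These were the inhibitor SMAD6, at 8.33, 8.84 and 8.9 CPM and then 66.2, 68.3 and 66.5 CPM, the receptor TGFBR1, at 80.5 and 321 CPM, and ID4, a repressor of transcription factors, at 0.143 and 2.81 CPM.

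Of 22 tested adhesion and mesenchymal genes 4 rose and 8 fell. CDH2, N-cadherin, gave 54.8, 50.6 and 51.8 CPM in parental wells and 1.04, 1.02 and 0.987 CPM in LTED-E, while LTED-D kept 51.4 CPM. L1CAM, a neural adhesion molecule, fell from 15.2 ± 1.79 to 0.09 ± 0.0506 CPM, and ITGB4, an integrin of hemidesmosomes, rose from 2.48 ± 0.253 to 22.3 ± 1.1 CPM. CDH1, E-cadherin, at 12.9 and 8.84 CPM, did not pass. Of 11 tested markers of fibroblasts, endothelium and basal epithelium 2 rose and 3 fell.

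Of 22 tested genes of the unfolded protein and integrated stress response 12 rose and 4 fell (median log2 fold change 0.62, and 0.04 from the other variants). SLC7A11, the cystine transporter, was the member higher than in each other group, at 5.92, 6.01 and 5.97 CPM in parental wells and 35.8, 35.7 and 34.1 CPM in LTED-E, beside 6.31 to 12.4 CPM. Of 21 genes of glycolysis and hypoxia 7 rose and 3 fell, NDRG1 from 7.4 to 0.222 CPM and below each other group. Of 17 tested steroid enzymes 8 rose. AKR1C2, which reduces ketosteroids and is near-identical to AKR1C1, rose from 0.112 ± 0.0713 to 8.32 ± 0.165 CPM and was at 14.4, 0.357 and 0.192 CPM in LTED-A, LTED-B and LTED-D. Of the 13 mitochondrially encoded genes 5 rose, at a median log2 fold change of 0.40.

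**Figure D5:**
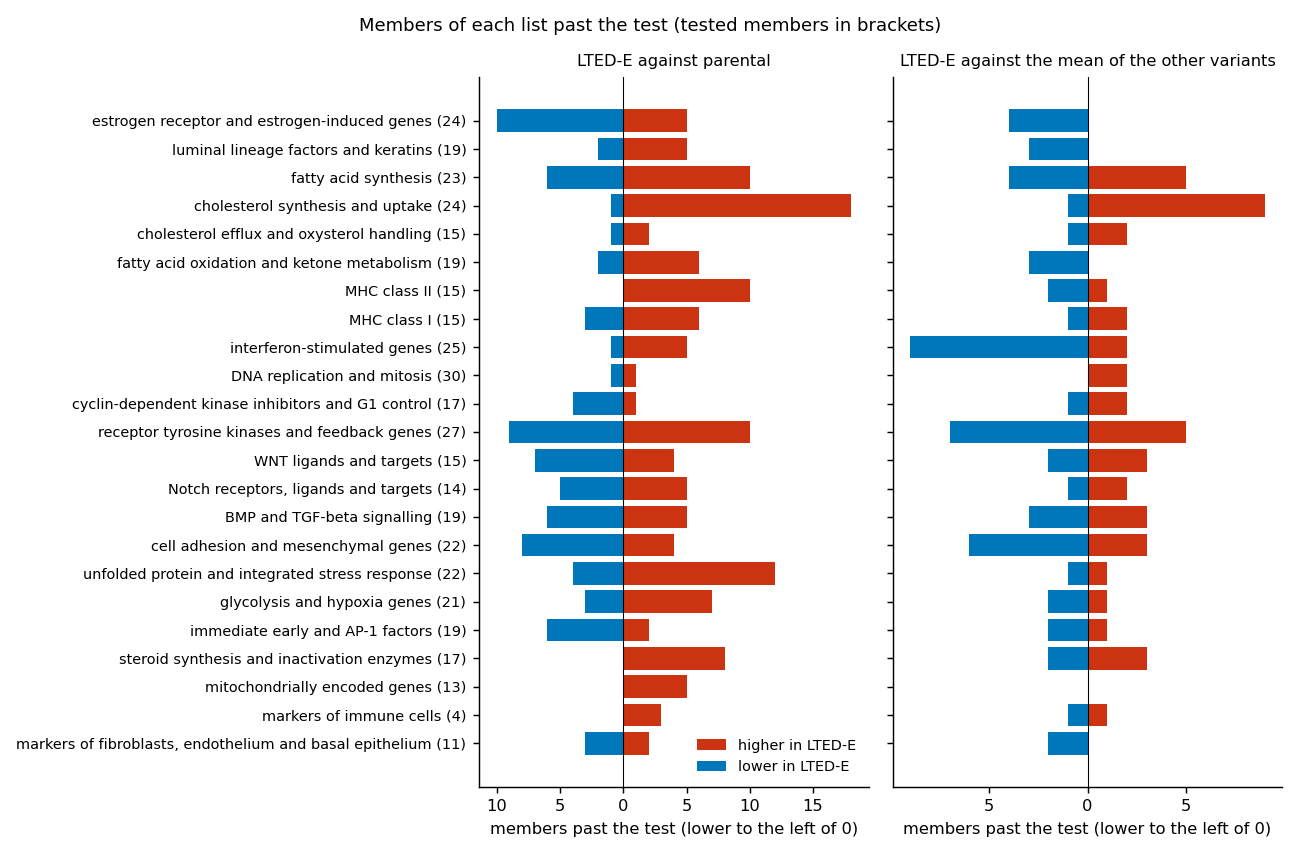
Members of each of 23 gene lists past the test (fold change over 1.5, adjusted p under 0.001), higher in LTED-E to the right of 0 and lower to the left, against parental cells and against the mean of LTED-A, LTED-B and LTED-D, with the tested members in brackets. Genes of cholesterol synthesis and uptake show 18 higher and 1 lower in the first panel and 9 and 1 in the second.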

How the data were processed

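The libraries of MM134 parental cells and their 4 LTED variants were analysed, 3 wells each, and those of SUM44 cells were not used here. The authors used a stranded total RNA kit and an Illumina HiSeq 2000, and deposited estimated counts per gene from Salmon 0.6.0 on hg38 with Ensembl release 82, without scaling (48% of the values are not whole numbers). Trimming and the strand setting are not given in the sources used here, so genes overlapping on opposite strands may share fragments. Symbols and positions came from GENCODE v44 by Ensembl ID (56434 genes matched), and promoters from RefSeq.

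Counts were rounded to whole numbers. After filterByExpr and TMM, 1 model over 15 libraries was fitted with edgeR 4.0.16 (quasi-likelihood test, two-sided, Benjamini-Hochberg over all genes; R 4.3.3). SE is the size of the log2 fold change divided by the square root of F. A count of 3 in a library is 0.0298 to 0.097 CPM. Ratios for groups with 1 to 3 counts have exact binomial 95% intervals, which cover counting error only. Wells of a group differed by more than sampling noise (chi-square per degree of freedom 2.35 to 10.5). Same-numbered parental and LTED-E libraries deviated from their group means with r from -0.417 to 0.292. They were not treated as pairs in the main fit, and so few correlations cannot exclude a shared batch or order.

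Named genes were protein-coding at a mean of at least 5 CPM: the 10 largest rises and falls, the 10 most above and below each other group, the 5 most opposite to the other variants, the 5 most apart from them at the parental level, and per list the 4 largest changes and the 2 largest differences from the other variants, with ESR1, PGR, SREBF1, FASN, CIITA, WNT4 and FGFR1 in any case. Other genes were named after their values were seen. The members and the 23 lists were chosen with earlier results of these data known. Lists are given by counts and medians. The script was tested on simulated data. Alternatives were other filters, size factors, thresholds, DESeq2 1.42.0, thinned counts, a replicate block, parental and LTED-E libraries alone, and each library left out. A few named genes are not reported here.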

Additional observations from a re-analysis of the deposited data

Results flagged for a closer look

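Of the 150 named genes 92 differed between LTED-E and the mean of LTED-A, LTED-B and LTED-D. Of all genes tested 3.16% were higher and 5.36% lower in that contrast. Of the 92, 59 differed the same way from each of the 3 in edgeR's test, 29 higher and 30 lower. Many of the 150 were named for a large difference from the other variants, so these counts follow in part from the choice. The 56 given here, 29 higher and 27 lower, are listed because their change from parental cells in LTED-E differed from that in the other variants. The values below are fitted log2 differences from the mean of the other variants.

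The genes higher by at least 2 in LTED-E were SDR16C5 (9.74), SH3BGRL (6.75), ANTXR1 (6.16), CCL20 (5.87), CXCR4 (5.70), VNN2 (5.37), SOSTDC1 (4.6), ME1 (4.23), ATP2A3 (4.01), IFITM3 (3.70), CRYBG3 (3.45), DOCK11 (3.36), IGFBP5 (3.18), C3orf70 (3.14), FOLR3 (3.07), FOXJ1 (2.81) and TNF (2.62). For SDR16C5 the value depends on the prior count, since LTED-B had 0 counts. Those higher by less were SLC7A11 (1.93), ITGAM (1.64), HMGCS1 (1.40), ITGB4 (1.24), MSMO1 (1.06), STARD4 (1.02), DLL1 (0.98), RRM2 (0.95), MKI67 (0.89), FADS1 (0.88), TGFBR1 (0.86) and SMAD6 (0.84).

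The genes lower by at least 3 were TCEAL8 (-9.00), CALCR (-7.96), RIBC2 (-7.20), RTL8A (-5.98), ABHD10 (-5.91), CRIP1 (-5.82), PCDHA7 (-5.80), TCIRG1 (-5.42), ALB (-5.14), PECR (-5.04), ZNF662 (-4.83), ABCA1 (-4.69), EEF1A2 (-4.50) and CDH2 (-3.83). For CALCR, with 3 counts in all LTED-E wells, RIBC2, also with 3, and others near 0 in LTED-E, the fitted size depends on the prior count. Those lower by less were L1CAM (-2.91), MYC (-2.70), POTEC (-2.68), STC2 (-2.55), SHISA2 (-2.49), NDRG1 (-2.34), UGT2B15 (-2.17), IFIT2 (-2.12), BMPR1B (-1.87), MMP16 (-1.51), HADHB (-0.77), COL1A1 (-0.73) and DDIT4 (-0.70).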

How the results depend on the processing

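The main counts of 2271 rises and 2676 falls against parental cells became 1362 and 1758 at a fold minimum of 2, and 4687 and 4557 without one. The 824 genes higher and 1396 lower than the other variants became 443 and 769, or 3008 and 3643. The 179 higher and 371 lower than each other group became 82 and 182, or 659 and 848. The highest median over neighbouring genes was 1.98 in windows of 20 genes, 0.219 in windows of 80 and 0.555 at a minimum of 1 CPM. The other alternatives kept every count within 1.5 times. With the replicate block the counts were 2232, 2608, 805, 1347, 177 and 359, and with DESeq2 2126, 2569, 754, 1356, 159 and 364. Leaving out each of the 6 parental and LTED-E libraries in turn gave 2128 to 2212 rises and 2480 to 2583 falls, each of the 12 LTED libraries 734 to 829 genes higher and 1206 to 1373 lower than the other variants, and each of the 15 libraries 157 to 184 and 328 to 361 for each other group. Against parental cells 213 list members and 132 of the 150 named genes were called, where 8.71% of all genes tested were higher and 10.3% lower. Many named genes were chosen for a large change, so their count follows in part from the choice. With a library left out the counts were 208 to 213 and 132 to 133. They were 145 and 117 at a fold minimum of 2, 297 and 142 without one, and 186 and 95 with at least 10 counts in every library.

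Of 300 named gene values 215 stayed on the same side of the thresholds under every alternative run. No value past the thresholds in the main fit or in the alternative changed direction, and changes of sign in other values were not counted. Genes that an alternative filter removed were left out of that alternative. DESeq2 shared 93.8% of the 4947 calls against parental cells, and leaving out an LTED-E library kept 84.9% to 87.8% of the 2220 calls against the other variants. The wells of a group do not sample separate derivations, and genes with few counts in a group are known only to within their counting intervals.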
